A study of Mus musculus with 98 samples.

Results

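Non-epithelial thymic stroma (NETS) of newborn wild-type (WT) mice was captured in this study both fresh and after fixation with RNAprotect Cell Reagent, and the present account sets these libraries side by side. The members were chosen by their labels: the unfixed postnatal day 0 (P0) libraries, replicates 1 and 2 (fresh P0), and the fixed WT libraries, replicates 1, 2 and 3 (fixed WT). They hold 16956 NETS cells, 10403 fresh and 6553 fixed, of 57659 single cells of the series, and they are 5 of its 98 samples. Fresh P0 cells were live Ter119-CD45-EpCAM- cells of newborn WT mice, sorted without epithelium and kept on ice until capture. Fixed WT cells were live Ter119-CD45- cells, epithelium included, of P0 WT littermates from the colony carrying Tbx1+/-Crkl+/-, a compound heterozygous model of 22q11.2 deletion syndrome, and they were fixed and stored before capture. Both were run on the 10x Genomics 3′ platform, and the fixed cells were sent to a genomics centre for loading and library preparation, while the place of preparation of the fresh libraries is not given in the sources used here. Fixation, storage, sort, mice and depth, and possibly the place of library preparation, differ together between the groups and cannot be told apart here. The sources describe the fixed WT cells as those of separate littermates and the fresh P0 cells as those of a pair of thymi. These numbers match the libraries, but the labels tie no library to an animal. Fresh P0 replicate 2 held both transcripts of the Y chromosome and the X-inactivation RNA *Xist*, so a fresh library may not be 1 animal. Each p-value below measures the spread between these 2 and 3 libraries.

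NETS are the mesenchymal, vascular and neural crest-derived cells that build the capsule, the vessels and the connective tissue of the thymus and signal to its epithelial cells and thymocytes. Enzymatic digestion and sorting of such tissue take time at which living cells can still transcribe, and immediate early genes of the Fos, Jun and Egr families and heat shock chaperones are well known to respond to it. RNAprotect Cell Reagent is an RNA preservative that stops such activity at the time it is added. The fixed cells were digested and sorted before it was added, so both groups went through these steps alive.

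Fixed cells carried fewer UMIs than fresh ones. The median per NETS cell was 12099.5 and 10807 UMIs in fresh P0 and 2530.5, 3539 and 5133 UMIs in fixed WT, a ratio of the means of 3.07 with no overlap. The median number of genes per cell was 3654 and 3436 against 1440.5, 1823 and 2290.5. With 2 against 3 libraries the two-sided exact permutation test cannot go below 0.2, which both measures reached. When each cell was thinned to 2000 UMIs, the order turned: 1113 genes in each fresh library and 1213, 1209 and 1179 in the fixed ones. Thinning kept 99.6 and 99.8% of the fresh cells, but only 71.0, 85.9 and 93.2% of the fixed cells. The fixed libraries also held cells labelled as epithelium or thymocytes, 29.7, 46.2 and 43.3% of their cells, which were left out. The methods state that contaminant clusters, such as those of epithelium, were removed, and the counts of fresh P0 held 0% of such cells. The 2 libraries of any pair shared 1 to 12 cell barcodes. Endothelial, capsular and neural crest markers were highest in the clusters carrying those names, while pericyte markers were highest in VSM in 4 of 5 libraries and mesothelial markers missed their cluster in fixed WT replicate 3, which had 0 Mes cells. One pair of libraries stood apart by sex-linked transcripts, as described at the end.

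Gene expression was compared after UMIs had been summed per library over 13 subtypes that had at least 20 cells in every library. Levels are given as CPM, the UMIs of a gene relative to that sum, in the order of the replicate numbers. Differences are log2 fold changes of fixed WT over fresh P0 ± standard error (SE) from edgeR's quasi-likelihood test with Benjamini-Hochberg adjustment. Its TMM factors were 0.886 and 0.881 in fresh P0 and 1.16, 1.09 and 1.01 in fixed WT, so a gene at equal CPM in both groups has a fold change below 0. "Higher", "lower", "rose" and "fell" are used of adjusted p-values under 0.05. Of 15189 genes tested, 2775 (18.3%) were higher and 2211 (14.6%) lower in fixed WT, with a median log2 fold change of -0.000272, and these shares are the background for the counts of each gene list below. With library totals only, which move the median of all genes by 0.29, the split was 4336 higher and 976 lower. Without fresh P0 replicate 1 the number of calls fell from 4986 to 2415, without fresh P0 replicate 2 to 2961, and without fixed WT replicate 2 to 2434.

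The difference recurred across subtypes that share these 5 libraries. Between 766 genes in MedFb1a, a medullary fibroblast subtype, and 2683 in Pc, the pericytes, were called per subtype, with a median of 1564. At least 7 of the 13 subtypes called 624 genes higher and none of the subtypes called them lower, which is 4.86% of 12841 genes. The corresponding lower set had 436 genes (3.4%). In all 13 subtypes 116 genes were higher and 62 were lower. This count of 1060 genes in both directions was 290 without fresh P0 replicate 1, 351 without fresh P0 replicate 2, 364 without fixed WT replicate 2, 684 with DESeq2 and 477 after thinning.

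The 10 genes with the largest median increase over the subtypes included *Gm29237*, *Krt17* and *Cd74*. *Gm29237*, an antisense RNA at chr11:30106394-30108120 (GRCm38, GENCODE M21) opposite the spectrin gene *Sptbn1*, was at 0.319 and 0.0829 CPM in fresh P0 and at 79.9, 71.8 and 46.5 CPM in fixed WT. It rose by 8.10 ± 0.41 (edgeR adjusted p = 5.3e-06) and was higher in 13 of 13 subtypes. *Krt17*, a keratin of epithelial cells, was at 1.72 and 0.746 CPM against 97.1, 126.9 and 104 CPM, a rise of 6.20 ± 0.35 (adjusted p = 7.4e-06) called in 13 of 13 subtypes. *Cd74*, the invariant chain of MHC class II, was at 10.8 and 5.16 CPM against 455, 560.1 and 531 CPM and rose by 5.73 ± 0.38 (adjusted p = 1.4e-05), also in 13 subtypes. No fixed library came near a fresh one for any of these genes. The MHC class II chains *H2-Ab1* (5.87) and *H2-Aa* (5.98), the calcium-binding *S100a14* (5.78) and *S100a8* (5.89) and the secreted *Wfdc18* (4.44) were also among the 10. *Pard3bos1*, which is read opposite *Pard3b*, was at 0.340 and 0.216 CPM against 35.0, 24.6 and 17.3 CPM. *B3galt2*, a galactosyltransferase gene that lies opposite *Cdc73*, was at 0.255 and 0.265 CPM against 28.7, 24.5 and 12.7 CPM, and both were called in 12 of the 12 subtypes that tested them.

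The genes with the largest median decrease were those of haemoglobin and of thymocytes, together with a few regulators. *Hbb-bs*, an adult β-globin, was at 386 and 719 CPM in fresh P0 and at 11.0, 29.9 and 27.8 CPM in fixed WT, a fall of 4.84 ± 0.42 on the log2 scale (edgeR adjusted p = 6.3e-05). *Hba-a1*, *Hba-a2* and *Hbb-bt* changed by -4.52, -4.46 and -4.27, but the split of reads within these near-identical globin pairs is uncertain. *Trbc2*, a constant segment of the T cell receptor β chain, was at 51.5 and 24.7 CPM against 9.13, 8.31 and 7.76 CPM (-2.48), and its near-copy *Trbc1* changed by -2.34. *Nfatc2*, a transcription factor activated by calcium signalling, was at 21.2 and 20.8 CPM against 3.82, 1.66 and 1.59 CPM, a change of -3.60 ± 0.27 (adjusted p = 2.7e-05) called in 10 of 11 subtypes. *Klf2*, a Krüppel-like factor, was at 1017 and 700.4 CPM against 225, 185.1 and 302 CPM and fell by 2.14 ± 0.28 (adjusted p = 0.0006). *Dusp18*, a phosphatase gene, was at 20.5 and 25.3 CPM against 5.31, 3.78 and 3.45 CPM (-2.80), and *Mpst*, which encodes a sulfurtransferase of cysteine metabolism, and the noncoding *Gm26802* changed by -1.91 and -1.65. In unfixed W4 (4-week-old) libraries *Nfatc2* was also low, at 1.55 and 1.48 CPM, and so was *Dusp18*, at 4.72 and 4.55 CPM, whereas unfixed E16.5 libraries had levels like those of fresh P0, at 17.3 CPM in both for *Nfatc2* and at 27.2 and 27.5 CPM for *Dusp18*.

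**Figure D1:**
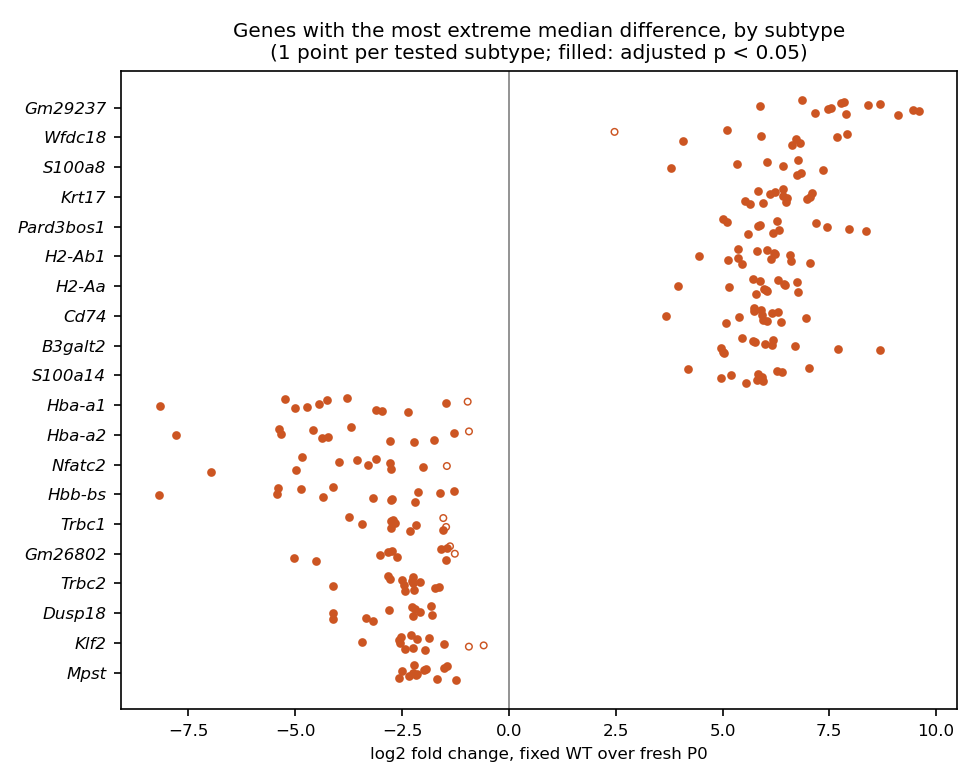
Log2 fold change of fixed WT over fresh P0 in each of the 13 subtypes for the genes with the largest median increase and decrease over subtypes, with one point per subtype that tested the gene, filled where the adjusted p was under 0.05. The noncoding Gm29237 (8.10 in the summed NETS) stands at the high end and Hbb-bs (-4.84), Hba-a1 (-4.52) and Hba-a2 (-4.46) at the low end.

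Transcripts of other cell types gave the largest list medians apart from the sex-linked genes. Of 16 thymic epithelial markers tested, 15 were higher in fixed NETS, with a median of 5.44, and this count was the same without any 1 library. Their summed level in cells labelled as NETS was 65.5 and 43.1 CPM in fresh P0 and 1616, 2043 and 1733 CPM in fixed WT, and it was higher in each fixed library than in each fresh one in 13 of 13 subtypes. *Prss16*, a thymus-specific protease of cortical epithelium, was at 2.57 and 1.08 CPM against 84.3, 104 and 91 CPM and rose by 5.40 ± 0.35 (edgeR adjusted p = 1.3e-05). *Epcam*, the surface molecule used to deplete epithelium from the fresh sort, was at 0.956 and 0.249 CPM against 32.9, 42.8 and 26.9 CPM (5.57), and *Foxn1*, the master regulator of thymic epithelium, was at 0.0850 and 0.0663 CPM against 4.25, 7.56 and 3.62 CPM (5.71). The tight junction gene *Cldn3* was the exception (-0.31 ± 0.36, adjusted p = 0.54). In the same fixed libraries, the NETS level of a marker was a median of 7.69, 6.88 and 5.41% of its level in the cells labelled as epithelium, with a range of 2.15 to 21.4%. The MHC class II genes on this list are also used by dendritic cells and macrophages. Over all genes, 440 of the 2775 higher genes (15.9%) were at least 5 times as high in the epithelial cells as in the NETS of the fixed libraries, against 6.12% of the genes tested.

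Thymocyte and erythroid transcripts went the other way. Of 16 thymocyte markers tested, 15 were lower in fixed NETS (median -2.39), and *Cd4* was not called (adjusted p = 0.10). Their summed level was 188 and 100.1 CPM in fresh P0 and 48.9, 44.1 and 34.8 CPM in fixed WT, so the fixed libraries lay below both fresh ones. *Tcf7*, a transcription factor of early T cells, was at 12.1 and 7.03 CPM against 2.76, 2.57 and 1.53 CPM (-2.45). The recombinase gene *Rag2*, which was not tested, was at 0.744 and 0.182 CPM in fresh P0. It was at 0 in each fixed library, where 3 UMIs represent 0.637, 0.453 and 0.170 CPM. All 5 haemoglobin genes tested fell, with a median of -4.46, and haemoglobin took 0.0621 and 0.140% of the UMIs of fresh P0 and 0.00253, 0.00739 and 0.00559% of those of fixed WT. Of 5 myeloid markers tested, the lysosomal protease gene *Ctss* (3.38), *Cd68* (1.01) and *Lyz2* (0.94) were higher at levels no greater than 14.7 CPM, and *C1qa*, *C1qb*, *C1qc* and *Tyrobp* were at 0 in fixed WT replicate 1. Only 1 myeloid marker was higher without fresh P0 replicate 1, without fixed WT replicate 2 (of 8 tested, median 0.039) or with equal weight per subtype. Epithelial cells were present in the fixed sort and depleted from the fresh one. The part of free RNA or of mislabelled cells in these levels was not tested.

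RNAs of the opposite strand formed the other group that ran through the fixed libraries. Of 697 tested genes of the GENCODE type antisense, 342 (49.1%) were higher and 13 lower in fixed WT, with a median of 1.25. Over the wider class of 928 noncoding genes with a gene on the other strand, 461 (49.7%) were higher, with a median of 1.25. With equal weight per subtype these were 312 (33.6%) and 0.41, and without fixed WT replicate 1 the median was 0.82. The equal-weight setting also uses log2(CPM + 1) without TMM factors, with a median of 0.11 over all genes. Its values are therefore on another scale, and the part of the weighting alone was not tested. The low-count filter can keep a gene through the fixed libraries alone. Without the filter 521 of 1841 (28.3%) of this class were higher, with a median of 1.06, beside 2828 of 19654 genes of all classes. Of 571 long intergenic RNAs 198 (34.7%) were higher and 23 lower (median 0.56), whereas protein-coding genes split into 2193 higher and 2146 lower of 13738 (16.0 and 15.6%). Antisense genes took 0.195 and 0.210% of the UMIs in fresh P0 and 0.650, 0.504 and 0.371% in fixed WT, and the groups did not overlap in any of the 13 subtypes. Whether the counting of reads used their strand is not given in the sources used here, so reads of these genes and of their coding partners may not be told apart. Of 358 coding partners tested, 79 were higher and 47 lower, with a median of 0.17.

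*Tsix*, the antisense partner of the X-inactivation RNA *Xist*, gave the most abundant example. It was at 12.8 and 6.04 CPM in fresh P0 and at 781, 525 and 348 CPM in fixed WT, a rise of 5.55 ± 0.44 (edgeR adjusted p = 3.6e-05). *Xist* itself was at 750.1 and 369.7 CPM against 871, 577 and 399 CPM, which overlapped and was not called (-0.18 ± 0.34, adjusted p = 0.71). There were 1.71 and 1.63 *Tsix* UMIs for each 100 *Xist* UMIs in fresh P0 and 89.7, 91 and 87.3 in fixed WT. *B430010I23Rik*, opposite *Mtus1*, was at 14.7 and 17.0 CPM against 248, 203 and 129.7 CPM (3.29), and *Gm26632*, opposite *Rbpms*, was at 13.4 and 20.3 CPM against 193, 153 and 82.9 CPM (2.76). The rise was not shared by every antisense RNA, since the imprinted *Airn* (-0.40 ± 0.24, adjusted p = 0.22) and *Kcnq1ot1* (-0.11 ± 0.24, adjusted p = 0.76) were not called. *mt-Nd6*, the only protein gene on the other strand of the mitochondrial genome, was at 13.3 and 13.4 CPM against 37.4, 63.6 and 55.8 CPM. It rose by 1.70 ± 0.24 (adjusted p = 0.00086) in 13 of 13 subtypes. *mt-Atp8*, which overlaps *mt-Atp6* on the same strand, rose by 1.37 ± 0.23 (adjusted p = 0.0022), and how reads of these overlapping genes were assigned is uncertain.

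**Figure D2:**
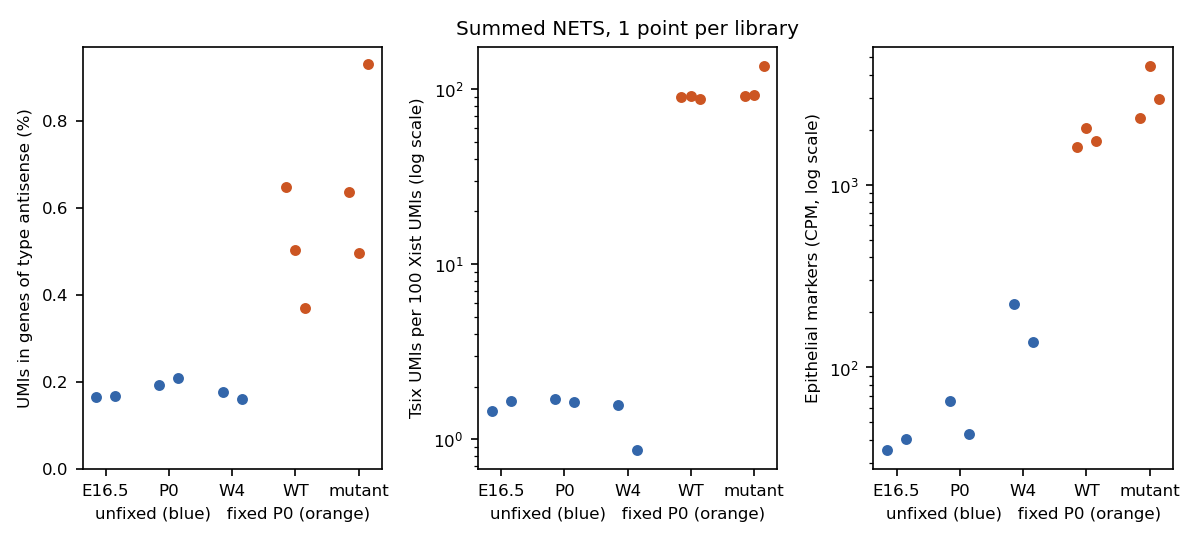
Share of UMIs in genes of the type antisense (percent), Tsix UMIs per 100 Xist UMIs (log axis) and summed CPM of the thymic epithelial markers (log axis) in the NETS of 12 libraries, one point per library. The 3 fixed WT libraries (0.371 to 0.650% antisense; 87.3 to 91 Tsix UMIs) lie with the 3 fixed Tbx1+/-Crkl+/- libraries, and fresh P0 lies with the unfixed E16.5 and W4 libraries.

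Nuclear-retained RNAs did not move as a block. The 8 on the list summed to 31066 and 29983 CPM in fresh P0 and to 96106, 65370 and 49417 CPM in fixed WT, 2.30 times the fresh mean, and each fixed library was above each fresh one in 13 of 13 subtypes. Most of this sum was *Malat1*. *Malat1*, an abundant RNA of nuclear speckles, was at 26472 and 25121 CPM in fresh P0 and at 88336, 60672 and 45952 CPM in fixed WT. The fixed libraries were all above the fresh ones, but their spread left the fold change of 1.02 ± 0.42 outside the threshold (edgeR adjusted p = 0.086), although 9 of the 13 subtypes called it. The median of the list was -0.12. It was above 0 without fixed WT replicate 3 (0.067), with the replicate block (0.025) and after thinning (0.085). In the block, fixed WT replicate 3 is the only library of its number and adds nothing to the contrast either. With library totals only it was 0.20 and with equal weight per subtype 0.21. Without genes of the type antisense it was 0.28, but this setting takes *Kcnq1ot1* off the list. Of the 8, *Miat* (1.70) and *Mirg* (0.65) were higher and the paraspeckle RNA *Neat1* was lower (-0.76 ± 0.25, adjusted p = 0.039). Without fresh P0 replicate 1, fresh P0 replicate 2 or fixed WT replicate 2, 0 of the 8 were called in either direction. The maternally expressed *Meg3* was not called (-0.14 ± 0.34) and its sign changed with the normalization. Of 7 snoRNA host genes, *Snhg9*, *Snhg11* and *Snhg20* were higher and *Snhg18* was lower, with 0 lower without fresh P0 replicate 1 or fixed WT replicate 2. *Snhg9*, opposite *Rps2*, was at 9.67 and 8.18 CPM against 41.6, 34 and 28.3 CPM (1.64 ± 0.18, adjusted p = 0.00019).

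Immediate early genes were lower in fixed WT for part of the list. Of 27 tested, 14 fell, 0 rose and 13 were not called, with a median of -0.58 beside -0.000272 over all genes. Their summed level was 26916 and 24412 CPM in fresh P0 and 15875, 16010 and 17835 CPM in fixed WT, 0.646 times the fresh mean, and it was below both fresh libraries in 13 of 13 subtypes. *Fos* was at 5019 and 3957 CPM against 1909, 1939 and 2517 CPM and fell by 1.37 ± 0.29 (edgeR adjusted p = 0.0064), a call made in 13 of 13 subtypes. *Jun*, its partner in the AP-1 factor, was at 4383 and 3852 CPM against 2068, 1938 and 1829 CPM (-1.38 ± 0.25, adjusted p = 0.003). The largest decreases among the factors that can join AP-1 were those of *Jund* (-1.88) and *Fosb* (-1.77), both called in 13 subtypes. *Egr1* fell by 0.68 ± 0.22 (adjusted p = 0.041), and *Junb*, at 2729.9 and 2696 CPM against 2053, 2301 and 2549 CPM, was not called (-0.53 ± 0.26, adjusted p = 0.15). *Klf4* (-1.85), *Dusp1* (-1.28) and *Atf3* (-1.13) fell, whereas *Zfp36* (0.09), *Gadd45b* (0.24), *Gadd45g* (0.06) and *Myc* (-0.03) were not called. The list thus did not move as a block. The number that fell was 7 without fresh P0 replicate 1, 8 without fresh P0 replicate 2, 6 without fixed WT replicate 2 and 9 with library totals only. Unfixed stroma of other ages had summed levels of 16776 and 17086 CPM (E16.5) and 12988 and 13327 CPM (W4), so fresh P0 was also high among unfixed libraries.

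Chaperones divided between named members. Of 13 heat shock genes, 7 were lower and 1 higher (median -0.71). *Dnajb1*, a co-chaperone of HSP70, was at 271 and 205 CPM in fresh P0 and at 92.2, 82.1 and 98.9 CPM in fixed WT (-1.67 ± 0.20, edgeR adjusted p = 0.00033), called in 13 of 13 subtypes. *Hspa8*, the constitutive HSP70, fell by 0.86 ± 0.24 (adjusted p = 0.022), and the HSP90 genes differed, with *Hsp90aa1* lower (-0.71 ± 0.21, adjusted p = 0.028) and *Hsp90ab1* not called (-0.29 ± 0.24, adjusted p = 0.38). The near-identical *Hspa1a* (-1.16) and *Hspa1b* (1.08) moved in opposite directions, and how reads were assigned between these copies is uncertain. Of 14 genes of the endoplasmic reticulum and amino acid stress list, 8 fell (median -0.54). *Hspa5*, the main chaperone of the endoplasmic reticulum, was at 1238 and 1150.4 CPM against 744, 728 and 668 CPM (-1.04 ± 0.21, adjusted p = 0.005), and the disulfide isomerase gene *Pdia4* was at 126 and 110.3 CPM against 28.5, 32.6 and 37.5 CPM (-2.12). *Xbp1*, a transcription factor of the unfolded protein response, was not called (-0.30 ± 0.19, adjusted p = 0.25). The heat shock genes that fell numbered 4 without fresh P0 replicate 1 or without fixed WT replicate 2, and those of the reticulum list 4, 5 and 4 without fresh P0 replicate 1, fresh P0 replicate 2 and fixed WT replicate 2.

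**Figure D3:**
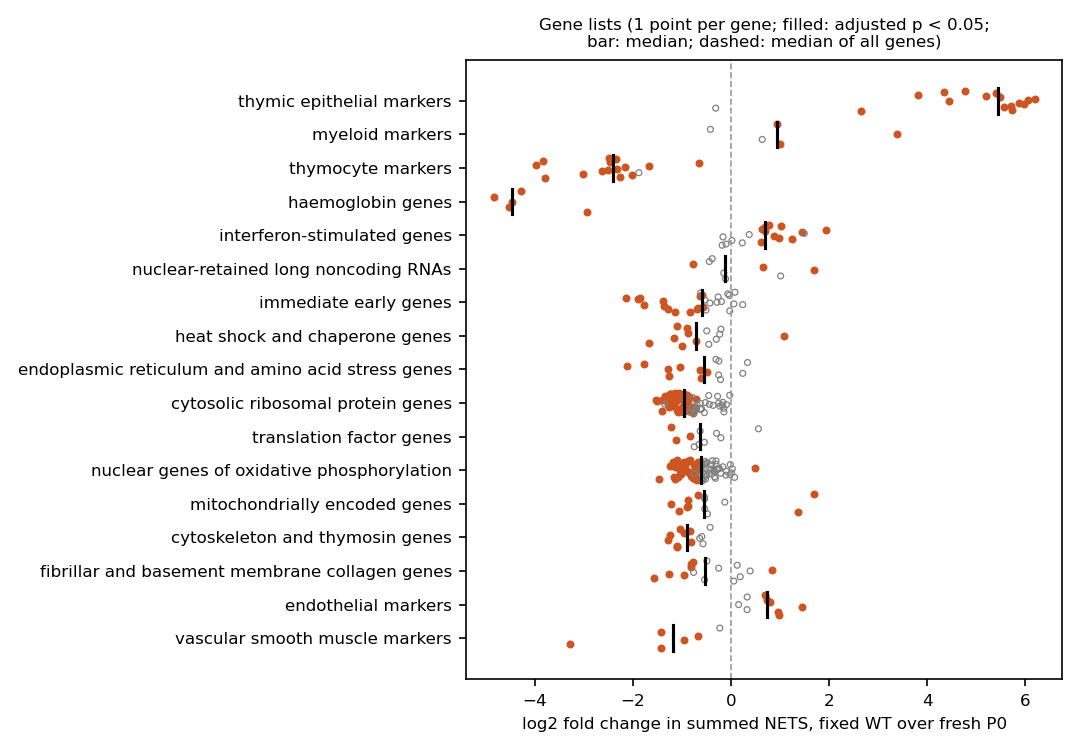
Log2 fold change of fixed WT over fresh P0 in the summed NETS for the tested members of the gene lists shown. There is one point per gene (filled where the adjusted p was under 0.05), a bar at the list's median and a dashed line at the median of all genes. The sex-linked genes are not among the lists shown. Among these lists, thymic epithelial markers (median 5.44) and haemoglobin genes (median -4.46) lie at the ends, with the ribosomal protein genes (median -0.95) and the immediate early genes (median -0.58) below 0.

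The abundant messengers of protein synthesis, respiration and the cytoskeleton took a smaller part of the fixed libraries. Ribosomal protein genes held 17.8 and 18.8% of UMIs in fresh P0 and 9.47, 11.6 and 14% in fixed WT. Unfixed W4 libraries had 12.2 and 13.3%, inside the fixed WT range, and unfixed E16.5 libraries 22.2 and 22.3%. Of 81 ribosomal protein genes tested, 55 were lower and 0 higher, with a median of -0.95. *Rps24*, a component of the small subunit, was at 4467 and 4695 CPM against 1917, 2347 and 2995 CPM (-1.20 ± 0.30, edgeR adjusted p = 0.014) and was called in 13 subtypes. *Rpl13* (-0.84 ± 0.30, adjusted p = 0.054) and *Rpl23* (-0.61 ± 0.29, adjusted p = 0.13) were not called. This count leaned on single libraries, with 20 lower without fresh P0 replicate 1, 15 without fresh P0 replicate 2 and 2 without fixed WT replicate 2. Of 83 nuclear genes of oxidative phosphorylation 41 were lower and 1, the assembly factor gene *Ndufaf7* (0.50), was higher. Without fixed WT replicate 2, 0 were higher. *Cox4i1*, a subunit of cytochrome oxidase, was at 904 and 921 CPM against 435, 519 and 635 CPM (-1.07 ± 0.25, adjusted p = 0.01). The number lower was 15 without fresh P0 replicate 1, 21 without fresh P0 replicate 2, 9 without fixed WT replicate 2, 69 without fixed WT replicate 3 and 20 with library totals only.

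Of 10 translation factor genes, *Tpt1* (-1.21 ± 0.29, edgeR adjusted p = 0.012) and the elongation factor gene *Eef2* (-1.11 ± 0.22, adjusted p = 0.0052) fell in 13 of 13 subtypes and *Eif4a1* fell in the sum (-0.83). *Eef1a1* (-0.74 ± 0.31, adjusted p = 0.086) and the poly(A)-binding protein gene *Pabpc1* (0.56 ± 0.21, adjusted p = 0.059) were not called. The number that fell was 1 without fresh P0 replicate 1, 0 without fresh P0 replicate 2 or fixed WT replicate 2, and 7 without fixed WT replicate 3. Of 12 cytoskeletal genes 8 fell, with a median of -0.90. *Actb* was at 4832 and 5161 CPM against 2159, 3116 and 3306 CPM (-1.09 ± 0.30, adjusted p = 0.022), and *Actg1* (-1.09), *Tuba1a* (-1.24) and *Pfn1* (-1.27) fell as well. *Vim*, the intermediate filament of mesenchyme, was not called (-0.42 ± 0.27, adjusted p = 0.25). The cytoskeletal genes that fell numbered 2, 5 and 0 without fresh P0 replicate 1, fresh P0 replicate 2 and fixed WT replicate 2. Mitochondrially encoded genes split: besides the 2 that rose, 6 of 13 fell, among them *mt-Co1* (-1.05 ± 0.26, adjusted p = 0.014) and *mt-Nd1* (-1.21 ± 0.23, adjusted p = 0.0042), and *mt-Atp6* and *mt-Co2* were not called. Without fresh P0 replicate 1, without fresh P0 replicate 2 or without fixed WT replicate 2, only 1 mitochondrial gene was lower, and with library totals 3 were.

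The fold change followed the length of the coding sequence. In 5 bins of 2749 genes each, all with an annotated coding sequence and ordered from the shortest (93 to 741 bases) to the longest (2517 to 105639 bases), the median log2 fold change was -0.31, -0.15, -0.05, 0.05 and 0.29. The share of genes higher in fixed WT was 9.89% in the shortest bin and 27.1% in the longest, and the share lower was 26.8% and 6.95%. Leaving out the ribosomal protein and oxidative phosphorylation genes moved the end bins only to -0.28 and 0.29. A like order was seen over the span of the gene in the genome, with medians of -0.27, -0.16, -0.05, 0.09 and 0.21 from the shortest to the longest genes. These are descriptions across genes, which are not replicates, and length goes with expression level and gene function.

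**Figure D4:**
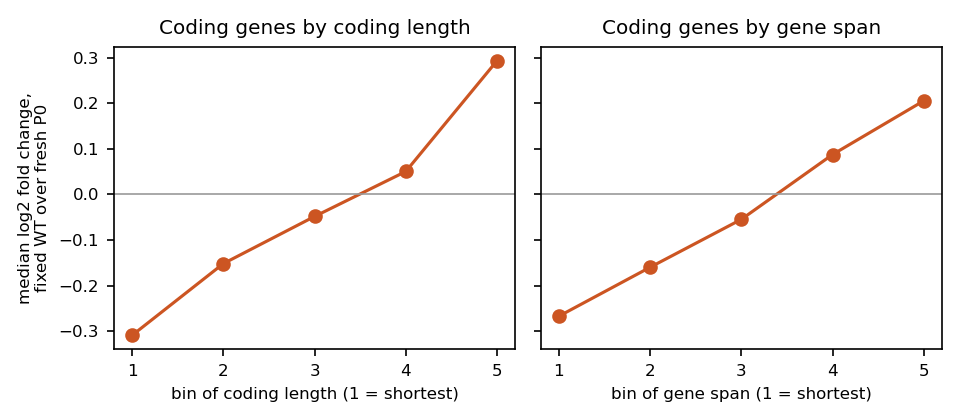
Median log2 fold change of fixed WT over fresh P0 in 5 equal bins of genes with an annotated coding sequence, ordered by the length of the coding sequence (left) and by the span of the gene in the genome (right), with bin 1 the shortest. The median runs from -0.31 to 0.29 over coding length and from -0.27 to 0.21 over span.

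Genes that mark the stromal lineages themselves also differed. Of 8 fibroblast markers, *Dcn* (-0.93), *Lum* (-1.01), *Dpt* (-1.35) and *Col1a1* (-0.95) were lower and *Pdgfrb* was higher. Of these, *Dcn* was called lower in 2 of 13 subtypes, *Col1a1* in 3 and *Lum* in 4, and 0 subtypes called them higher. The list's sum was lower in each fixed library than in each fresh one in 7 of 13 subtypes, and higher in 0. With equal weight per subtype, a setting that also drops the TMM factors, 0 of the 8 fell and 2 rose. The shares of some labels differed too, as given below, and their part in the summed levels was not tested. *Pdgfrb*, a growth factor receptor of fibroblasts and mural cells, was at 150.8 and 207 CPM in fresh P0 and at 568, 649 and 459 CPM in fixed WT (1.34 ± 0.23, edgeR adjusted p = 0.0026) and was called in 13 of 13 subtypes, whereas its relative *Pdgfra* was not called (0.45 ± 0.17, adjusted p = 0.069). The number of fibroblast markers that fell was 0 without fresh P0 replicate 1 or fixed WT replicate 2, 2 without fixed WT replicate 1, 6 without fixed WT replicate 3 and 2 with library totals only. Of 15 collagen genes, 6 fell and 1 rose, and 0 rose without fixed WT replicate 2. *Col1a2*, a chain of fibrillar collagen I, was at 4128 and 3011 CPM against 1763, 1789 and 1931 CPM (-1.26 ± 0.26, adjusted p = 0.0065). *Col15a1*, a basement membrane collagen used here as a medullary fibroblast marker, fell by 1.56 ± 0.20 (adjusted p = 0.00052), and *Sod3* (-1.43) and *Col26a1* (-1.14) also fell, which made 3 of 6 medullary markers, and 5 without fixed WT replicate 3. *Serpine2* (-0.61, adjusted p = 0.056), *Oaf* (-0.63, adjusted p = 0.072) and *Tmem176a* (-0.15, adjusted p = 0.64) were not called. Of 6 capsular fibroblast markers, *Pi16* (-1.52) and *Sfrp1* (-0.92) fell and 0 rose (median -0.47). With library totals only 1 fell and 1 rose, and 1 fell with DESeq2 or without fixed WT replicate 1. *Mfap5* (-0.79) and *Dpep1* (0.41) were not called. *Col4a2*, a chain of basement membrane collagen IV, was at 604 and 760.3 CPM against 1291, 1753 and 1419 CPM and rose by 0.83 ± 0.26 (adjusted p = 0.032), and *Col4a1* was not called (0.39 ± 0.26, adjusted p = 0.27). Only 1 collagen gene was lower without fresh P0 replicate 1 or without fixed WT replicate 2, and with library totals 3 rose and 3 fell.

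Vascular markers moved in both directions. Of 9 endothelial markers 6 were higher and 0 lower (median 0.73). *Flt1*, a receptor for vascular endothelial growth factor, was at 25.5 and 23.1 CPM in fresh P0 and at 107.3, 71.5 and 70.3 CPM in fixed WT (1.46 ± 0.19, edgeR adjusted p = 0.00057), and *Cdh5* (0.98), *Egfl7* (0.96) and *Pecam1* (0.73) rose with it. The capillary label EnC also made up more of the fixed NETS, as given below, and the part of that share in the summed levels was not tested. By subtype, the sum of the endothelial markers was higher in each fixed library than in each fresh one in 11 of 13, and lower in 1. *Egfl7* was called higher in 9 of 13 subtypes and *Pecam1* in 7 of 12. The highest sum in any label was 8361 and 8267 CPM in fresh P0 and 7764, 8394 and 8172 CPM in fixed WT. That label was EnC except in fixed WT replicate 2, where it was the venous and lymphatic label EnVL. The EnC values of fixed WT replicates 1 and 3 lay below those of fresh P0. Without fresh P0 replicate 2 only 1 endothelial marker was higher. Of 6 pericyte markers, *Notch3* (1.04), *Cspg4* (0.93) and *Colec11* (0.73) were higher, and 0, 2 and 1 were without fresh P0 replicate 1, fixed WT replicate 1 and fixed WT replicate 2. The pericyte label Pc was 9.30 and 15.1% of fresh NETS cells and 22.4, 27.0 and 20% of fixed ones, which was not called (edgeR adjusted p = 0.051), and the part of that share was not tested either. Of 6 vascular smooth muscle markers 5 were lower (median -1.18). By subtype, however, their sum was higher in each fixed library than in each fresh one in 4 of 13, and lower in 3. *Cnn1*, which encodes calponin, was at 59.2 and 16.9 CPM against 2.76, 8.31 and 3.51 CPM (-3.28 ± 0.52, adjusted p = 0.0017), and the smooth muscle actin gene *Acta2* was at 1538 and 1083 CPM against 402, 737 and 639 CPM (-1.43 ± 0.31, adjusted p = 0.0071). Of these, 3 were lower without fresh P0 replicate 2 and 0 when every subtype had equal weight. The labels NC and Mes are not among the 13 summed subtypes, and of the 5 neural crest and 4 mesothelial markers tested there 0 were called. This depended on the libraries: 2 neural crest markers were higher without fixed WT replicate 3 and with the replicate block, and 1 was lower without fresh P0 replicate 2. Of the mesothelial markers 1 was higher without fresh P0 replicate 1, 2 were lower without fresh P0 replicate 2, 1 was lower with the block and 2 were lower in the sum over all shared labels (median -3.84).

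Interferon-stimulated genes were higher in fixed WT in 11 of 18 cases and lower in 0, with a median of 0.70. *Rsad2*, an antiviral enzyme gene, was at 3.91 and 5.54 CPM in fresh P0 and at 21.7, 20.6 and 24.0 CPM in fixed WT (1.94 ± 0.22, edgeR adjusted p = 0.00026). *Ifit3* was at 12.3 and 18.3 CPM against 52.5, 36.9 and 44.7 CPM (1.25 ± 0.21, adjusted p = 0.0023), and *Usp18* (1.03), *Irf7* (0.88) and *Xaf1* (0.78) rose as well. The most abundant members did not follow: *Ifitm3*, at 1919 and 2376 CPM against 1823, 2304 and 2887 CPM, overlapped (-0.16 ± 0.30, adjusted p = 0.71), and so did *Bst2* (-0.18 ± 0.28) and *Ifi27l2a* (0.24 ± 0.32). The signs of *Ifitm3*, *Bst2*, *Ifi27* and *Ifi27l2a* changed with the normalization or with single libraries left out. *Bst2* was called lower without fixed WT replicate 3 (-0.53, adjusted p = 0.017) and with the replicate block (-0.54, adjusted p = 0.020), to which that library adds nothing either. *Ifi27l2a* was called higher with equal weight per subtype (0.96, adjusted p = 0.034). The number higher was 4 without fresh P0 replicate 1 and 8 to 10 without any other library.

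The makeup of the stroma differed in 3 of 19 labels. EnC, the capillary endothelium, was 3.39 and 3.1% of fresh NETS cells and 7.96, 8.00 and 10.6% of fixed ones (log2 difference 1.45, edgeR adjusted p = 0.0064). The capsular fibroblast label CapFb2a was 6.59 and 3.4% against 1.14, 1.13 and 1.09% (-2.15, adjusted p = 0.0064), and CapFb3 was 5.84 and 2.82% against 0.719, 0.179 and 0.748% (-2.93, adjusted p = 0.016). For all 3 labels the libraries of the groups did not overlap. Pericytes (Pc) were 9.30 and 15.1% against 22.4, 27.0 and 20%, just outside the threshold (0.93, adjusted p = 0.051). Mesothelial cells had the largest ratio between the fresh libraries, at 4.86 and 0.123%, and were 0.479, 0.418 and 0% of the fixed ones (edgeR adjusted p = 0.18). Between 1 and 5 labels were called when single libraries were left out, and 5 with DESeq2 or with TMM factors on the cell numbers. The labels of fixed cells came from transfer from the unfixed reference, and the genes that define labels are among those that differed.

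**Figure D5:**
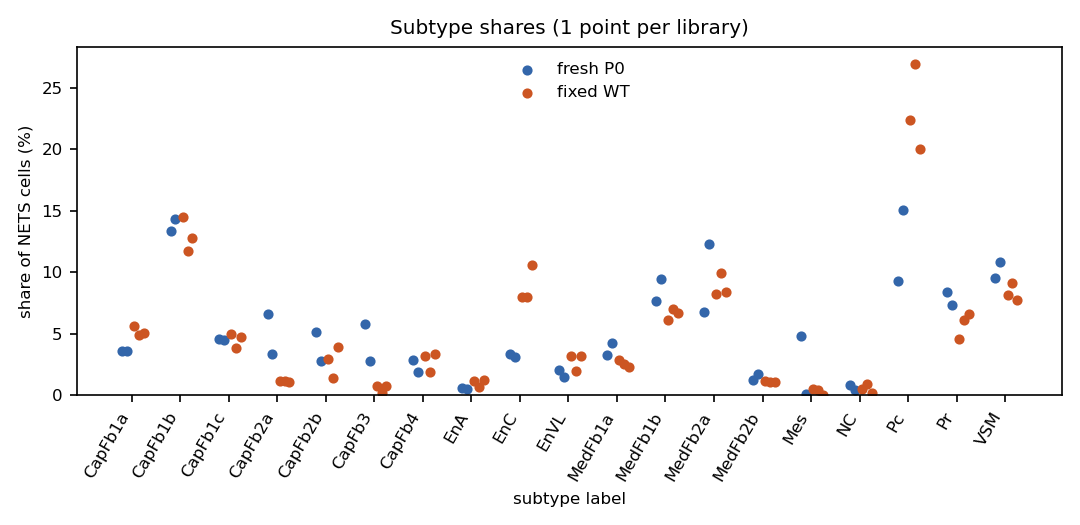
Share of NETS cells (percent) carrying each subtype label in each of the 5 libraries, one point per library. EnC is higher in all fixed WT libraries (7.96 to 10.6%) than in fresh P0 (3.1 and 3.39%), and CapFb2a and CapFb3 are lower.

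To ask whether the difference was alike in separate cell classes, fibroblasts and endothelium of the same libraries were put in a single model with the library as a term. Fibroblasts had 2051 genes higher and 1510 lower of 13896, and endothelium 1597 higher and 1316 lower of 11055. The difference itself differed for 591 of 12835 genes (4.6%), 190 with a more positive and 401 with a more negative change in endothelium. The imbalance of this split depended on the scaling, with 222 and 352 under RLE factors and 282 in each direction with library totals only. The genes with the most positive interaction were at 0 in fresh endothelium. *Dact2*, which encodes a regulator of Wnt and TGF-β signalling, was at 4.52 and 2.59 CPM in fresh fibroblasts and at 7.49, 11.8 and 9.19 CPM in fixed ones. In endothelium it was at 0 in both fresh libraries and at 7.79, 13.4 and 9.89 CPM in the fixed ones, at least 20.1-fold higher than the 0.506 CPM that 3 UMIs over both fresh libraries represent. The fixed endothelium thus came to a level near that of the fixed fibroblasts. The neurofilament gene *Nefm* and the folate enzyme gene *Aldh1l1* were also at 0 in fresh endothelium and at least 24.9-fold and 21.5-fold higher in fixed. In the epithelial cells of the fixed libraries *Dact2*, *Nefm* and *Aldh1l1* were at 51.7 to 97.2 CPM, 87.9 to 144.2 CPM and 46.7 to 87.6 CPM. The other 2 of the 5 were at lower levels there, *Lypd1* at 13.7 to 25.6 CPM and *Gm26935* at 1.98 to 2.75 CPM, the latter beside 11.7, 5.73 and 2.75 CPM in fixed endothelium.

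At the other end, *Ccl21a*, a chemokine made by lymphatic endothelium and medullary epithelium, was at 471 and 183 CPM in fresh endothelium and at 171, 95.6 and 84.6 CPM in fixed. In fibroblasts it was at 1.80 and 1.46 CPM against 67, 68.2 and 54.5 CPM, and it was at 1062, 1107 and 802 CPM in the epithelial cells. *Ubd*, a ubiquitin-like modifier gene, also rose in fibroblasts but overlapped in endothelium, with 71.2 and 30.7 CPM against 17.5, 59.2 and 39.6 CPM in endothelium (-0.63 ± 0.35, edgeR adjusted p = 0.19) and 0.334 and 0.354 CPM against 13.1, 15.1 and 11.9 CPM in fibroblasts. *Gkn3*, known from arterial endothelium, was at 34.7 and 30.7 CPM in fresh endothelium and at 0, 0 and 1.65 CPM in fixed (interaction -4.51). The serotonin receptor gene *Htr2b* was at 14.3 and 5.01 CPM against 1.95, 1.91 and 0 CPM. The number of genes with an interaction was 385 without fresh P0 replicate 1, 274 without fixed WT replicate 2, 237 without fixed WT replicate 3, 241 after thinning and 273 with DESeq2.

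Other libraries of the series give the levels outside this contrast, as a description, since age and genotype differ in them. The earlier embryonic libraries were not used. The mutant libraries share the sort, fixation and storage of fixed WT, and the E16.5 and W4 libraries share the sort of fresh P0. The same factors thus differ again between them, and their parts were not tested. Of the 2775 higher genes 2393 (86.2%) were higher in each of the 3 fixed Tbx1+/-Crkl+/- libraries than in each of the 4 unfixed E16.5 and W4 libraries, against 38.4% of all genes tested. Of the 2211 lower genes 1035 (46.8%) were lower, against 10.8%. For the genes called in at least 7 of the 13 subtypes, the numbers were 604 of 624 (96.8%) and 321 of 436 (73.6%). Antisense genes took 0.637, 0.496 and 0.933% of UMIs in the mutant libraries, 0.165 and 0.167% in E16.5 and 0.177 and 0.162% in W4. *Tsix* stood at 90.7, 92.5 and 135 UMIs per 100 *Xist* UMIs in the mutants and at no more than 1.66 in E16.5 and W4. *Malat1* was at 85523, 51507 and 107228 CPM in the mutants, at 17435 and 18370 CPM in E16.5 and at 42486 and 31101 CPM in W4. The epithelial markers summed to 2306, 4457 and 2959 CPM in the mutants, to 35.4 and 40.5 CPM in E16.5 and to 222 and 138.6 CPM in W4. The thymocyte markers did not separate fixed from unfixed libraries in this way, with 30.7, 207.9 and 74.8 CPM in the mutants, 68.0 and 85.3 CPM in E16.5 and 434 and 237 CPM in W4, and the second mutant library lay above both fresh P0 ones. Immediate early genes summed to 16508, 14965 and 11734 CPM in the mutants, close to or below the E16.5 values given above, so for this list the fixed and unfixed libraries of the series overlapped.

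Sex-linked transcripts set the fresh libraries apart from each other. *Ddx3y*, *Eif2s3y*, *Kdm5d* and *Uty*, all on the Y chromosome, summed to 3.65 CPM in fresh P0 replicate 1 and to 96.3 CPM in replicate 2, and were at 0 in the 3 fixed WT libraries. A count of 0 allows up to 3 UMIs, or 0.637, 0.453 and 0.170 CPM, in these libraries, below the level in either fresh library. *Xist* was at 750.1 CPM in replicate 1 and at 369.7 CPM in replicate 2. Replicate 2 thus held both kinds of transcript, which a single male or female would not give, so it may hold cells of more than 1 animal. The sex of the animals is not in the labels, and the groups differed in it as far as these genes show.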

How the data were processed

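Droplet single-cell 3′ libraries of sorted thymic stroma were compared, 2 of fresh P0 and 3 of fixed WT NETS. The authors aligned and counted UMIs with Cell Ranger 3.1.0 (per the labels, which name the builds GRCh38 and mm10 with no role). They removed doublets with DoubletFinder and cells by gene number and mitochondrial share. Their methods also state the removal of *Ptprc*-expressing and other contaminant clusters, though the fixed counts kept cells labelled as epithelium and thymocytes. Raw UMI counts per gene and cell were deposited as 2 tables, with a subtype label for each cell. The annotation and the use of strand in counting are not given in the sources used here. The deposited counts of the fixed WT libraries hold cells with as few as 900 genes, although the methods state a minimum above 1000. Cells labelled as epithelium or thymocytes were left out, and the 20073 genes present in both tables were kept; the other genes held at most 0.0122% of UMIs.

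Counts were summed per library and label. Of 19 labels in both tables, 13 had at least 20 cells in every library and were tested. The library sums held 47067800, 60294200, 4707860, 6617120 and 17657600 UMIs. Genes passing filterByExpr were tested with edgeR 4.0.16 in R 4.3.3 (TMM factors, quasi-likelihood test, Benjamini-Hochberg adjustment, threshold 0.05), with no covariate. The interaction of cell class and group had the library as a term. Subtype shares were tested by the same tool with the NETS cell total as the offset. A test on simulated data drew counts for 14452 genes of the summed NETS and recovered 60.2% of genes changed by log2 1 and 92.9% of those changed by log2 2. Gene types, positions, coding lengths and overlaps come from GENCODE M21 (GRCm38), matched by symbol.

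Members, the 31 gene lists and tests were chosen with earlier results of these data known. The genes named were the 10 highest and 10 lowest in median fold change among those called in at least 7 of the 13 subtypes, the 4 most abundant members of each list, the 5 most positive and 5 most negative interactions and the sex-linked genes. Other list members, *Tsix* and the other antisense genes with their values were singled out after these were seen. Alternatives were RLE factors, library totals only, counts without mitochondrial, ribosomal protein and haemoglobin genes, no filter, DESeq2 1.42.0 and each library left out. A replicate block, thinning to 2000 UMIs, cells with more than 1000 genes and at least 50 cells per label were used too. So were all shared labels, equal weight per subtype (limma 3.58.1 on log2(CPM + 1), without TMM factors) and mural cells in place of endothelium. In the replicate block, fixed WT replicate 3 is the only library of its number, so it adds nothing to the contrast. Counts without antisense genes, and without genes of epithelium and thymocytes, were added after seeing the data, and these genes left the lists as well. Some members of the lists are not reported here. Floors of 3 UMIs cover counting error only. With 1 fresh library left out, the lone sample is assumed to vary like the others.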

Additional observations from a re-analysis of the deposited data

Results flagged for a closer look

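The change from fresh P0 to fixed WT differed between endothelium and fibroblasts by the test of the difference itself for 591 genes. The largest positive differences of differences (endothelium minus fibroblasts, log2) were 8.40 for *Dact2*, 8.20 for *Nefm*, 8.03 for *Lypd1*, 7.83 for *Aldh1l1* and 7.59 for *Gm26935*, all 5 at 0 in fresh endothelium, so that these fitted values depend on the prior count and the fold in endothelium alone has only a lower bound. The largest negative ones were -9.09 for *Htr2b*, -6.81 for *Ccl21a*, -5.57 for *Ubd*, -5.15 for *Arhgap27os1* and -4.51 for *Gkn3*. *Ccl21a* and *Ubd* carried their calls at higher counts, with SEs of 0.25 and 0.39, and kept them without any single library. The edgeR adjusted p of *Gm26935* (0.046) was 0.21 without fresh P0 replicate 1, 0.17 without fresh P0 replicate 2, 0.095 without fixed WT replicate 2 and 0.098 without fixed WT replicate 3. Without fresh P0 replicate 1 the calls of *Nefm* (0.11), *Lypd1* (0.22), *Aldh1l1* (0.13) and *Gkn3* (0.052) were lost as well, and without fresh P0 replicate 2 those of *Lypd1* (0.061) and *Aldh1l1* (0.052). Without fixed WT replicate 2 *Nefm* (0.061), *Aldh1l1* (0.066), *Arhgap27os1* (0.073) and *Gkn3* (0.067) were lost. Without fixed WT replicate 3 *Nefm* (0.079), *Lypd1* (0.19), *Aldh1l1* (0.061), *Arhgap27os1* (0.052) and *Gkn3* (1.0) were lost. After thinning *Dact2* (0.45), *Nefm* (0.41) and *Gkn3* (0.37) were not called. DESeq2 gave no adjusted p for *Lypd1*, *Gm26935*, *Htr2b* and *Arhgap27os1*.

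Outside the contrast, genes of the type antisense took 0.637, 0.496 and 0.933% of the UMIs of the fixed Tbx1+/-Crkl+/- libraries. These shares were above each of the 6 unfixed libraries of E16.5, P0 and W4, whose highest share was 0.210%. The mutants carry another genotype than the WT libraries compared here, and what it contributes was not tested.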

How the results depend on the processing

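The 4986 calls in the summed NETS ranged from 2415 to 6911 when single libraries were left out and were 3172 (2391 higher, 781 lower) with equal weight per subtype and 5312 with library totals only, under which the 2775 higher genes and 976 of the 2211 lower genes were still called in their direction. The 1060 genes of at least 7 subtypes numbered 290 to 1338 without single libraries, 684 with DESeq2, 477 after thinning and 1482 with subtypes of at least 50 cells. The median per subtype (1564) was 653 to 1631 without single libraries and 965 after thinning. The 591 interactions were 237 to 581 without single libraries, 902 without a filter, 273 with DESeq2, 241 after thinning and 350 with mural cells, where *Gm26935* (-0.69), *Ccl21a* (0.56) and *Ubd* (1.20) reversed. The labels called by share (3) were 1 to 5 without single libraries, 6 with the replicate block, 5 with DESeq2 and 5 with TMM factors. The difference in median genes per cell (fixed minus fresh, -1693.67) became 87.33 after thinning. The causes were not tested, beyond the fewer libraries, cells or UMIs that an alternative leaves.

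Neither the labels nor the methods tie a replicate number of one group to the other, so the numbers were not taken as pairs. Deviations of same-numbered libraries had correlations of -0.0962 and 0.106. With 2 fresh libraries, whose deviations mirror each other, these values cannot decide on pairing. The replicate block gave 7243 calls in the summed NETS and a median of 2070 per subtype, with fixed WT replicate 3 adding nothing to its contrast.

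Among the named genes and the shares, signs reversed only for values that were not called in the main test. Without single libraries the log2 ranges were -0.47 to 0.076 for *Meg3*, -0.34 to 0.058 for *Kcnq1ot1*, -0.39 to 0.032 for *Ifitm3*, -0.53 to 0.010 for *Bst2*, -0.15 to 0.49 for *Ifi27l2a*, -0.19 to 0.33 for *Gpihbp1* and -0.61 to 0.40 for *Xist*, and for shares -0.074 to 0.095 for CapFb1c, -0.86 to 0.051 for CapFb2b, -0.48 to 0.39 for MedFb2a, -4.32 to 0.94 for Mes and -1.01 to 0.18 for NC. With library totals only *Meg3* was 0.18, *Kcnq1ot1* 0.21, *Ifitm3* 0.12, *Bst2* 0.10, *Ifi27* 0.19, *Tpm1* 0.075 and *Xist* 0.14. With equal weight per subtype *Meg3* was 0.070, *Kcnq1ot1* 0.38, *Ifitm3* 0.10, *Bst2* 0.13, *Ifi27* 0.076, *Rgs5* 0.44, *Tpm1* 0.20 and *Xist* 0.27. With the replicate block *Meg3* was 0.026, *Kcnq1ot1* 0.024, *Ifi27l2a* -0.17, *Gpihbp1* -0.19, *Xist* 0.081 and the share of NC 0.22. *Kcnq1ot1* was 0.13 after thinning and *Csf1r* -0.024 over all labels. With TMM factors the shares of CapFb1b, CapFb1c and MedFb2a were 0.040, 0.12 and 0.043, and that of CapFb1c was 0.033 with cells above 1000 genes. Over all alternatives of the named genes, 1339 values kept their direction and side of the threshold, 126 lost and 54 gained a call and 31 reversed. In EnVL, the subtype with the fewest genes tested, the simulation recovered 24.4% of genes changed by log2 1 and 88.8% of those changed by log2 2.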

Other observations

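Of 23 cell cycle genes tested, 10 were lower and 1 higher in fixed WT, and 9 were lower and 3 higher with library totals only. Their summed level overlapped, at 1707 and 1477 CPM in fresh P0 and 1377, 1281 and 1656 CPM in fixed WT. The proliferating label Pr was 8.40 and 7.33% of fresh NETS cells and 4.61, 6.15 and 6.64% of fixed ones (adjusted p = 0.18), and its part in these values was not tested. The replication genes *Mcm5*, at 35.7 and 29.9 CPM in fresh P0 and at 9.35, 11.0 and 12.4 CPM in fixed WT (-1.83 ± 0.19, edgeR adjusted p = 0.00016), *Mcm2* (-1.44), *Mcm6* (-1.35) and *Mcm3* (-1.25), and the genes of the nucleotide enzyme ribonucleotide reductase, *Rrm2* (-1.80) and *Rrm1* (-1.33), fell. *Cenpf*, a kinetochore gene of late cycle, was at 51.6 and 39.1 CPM against 109.8, 83.9 and 99.1 CPM and rose by 0.81 ± 0.19 (adjusted p = 0.01), whereas *Top2a* (0.08 ± 0.20) and *Mki67* (-0.25) were not called. Among 43 histone genes 6 were higher and 8 lower, with 3 higher without fresh P0 replicate 2 or fixed WT replicate 2 and 5 lower without fresh P0 replicate 1 or fixed WT replicate 2. *Hist1h2ap* was at 26.6 and 10.9 CPM against 50.6, 111 and 123 CPM (2.08 ± 0.45, adjusted p = 0.0071), while the linker histone genes *Hist1h1b* (-1.57) and *Hist1h1a* (-1.77) fell. Histone genes are near-identical in part, so single members are uncertain.

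Of 18 hypoxia genes 2 rose and 3 fell. The number that fell was 0 without fresh P0 replicate 1 or fixed WT replicate 2, 1 without fresh P0 replicate 2 and 7 without fixed WT replicate 3. The number that rose was 4 without fixed WT replicate 3, 1 without any other library and 6 with library totals only. *Hk2*, a hexokinase, was at 30.7 and 27.0 CPM in fresh P0 and at 158.2, 126 and 132.4 CPM in fixed WT (1.97 ± 0.18, edgeR adjusted p = 7.1e-05), and the glycolytic *Ldha* (-0.87), *Pkm* (-0.76) and *Slc2a1* (-0.74) fell. Of 11 p53 target genes, *Cdkn1a* (-0.89), *Bax* (-0.74) and *Eda2r* (-1.15) fell and *Sesn1* rose (0.60). The number of p53 targets that fell was 0 without fresh P0 replicate 1, without fixed WT replicate 2 or with library totals only, and 1 without fresh P0 replicate 2. The number that rose was 0 without fresh P0 replicate 2 or fixed WT replicate 2, and 2 without fixed WT replicate 3 or with library totals only. Of 11 genes often used as references, 4 fell, *Rplp0* by 1.14 ± 0.31 (adjusted p = 0.018), and *B2m* (-0.19 ± 0.22) and *Polr2a* (-0.00) were not called. The number of reference genes that fell was 0 without fresh P0 replicate 1, fresh P0 replicate 2 or fixed WT replicate 2, 7 without fixed WT replicate 3 and 2 with library totals only. Of 3 cold-responsive genes, *Rbm3* was lower (-0.84 ± 0.24, adjusted p = 0.023), *Srsf5* was not called (0.60 ± 0.22, adjusted p = 0.058) and neither was *Cirbp* (-0.49 ± 0.22). Without fresh P0 replicate 1, fresh P0 replicate 2 or fixed WT replicate 2, 0 of the 3 were called. Without fixed WT replicate 3, 2 were lower and 1 higher. *Mdm2*, at 36.2 and 36.5 CPM against 61, 53 and 42.1 CPM, shows how the TMM factors act: its CPM was higher in each fixed library, and its fold change of 0.20 ± 0.16 was not called.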
